A study of Homo sapiens with 15 samples.

Results

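OLFM4, SCGB1A1, CALB1, LUM and DCN, 5 of the 17214 genes listed for all 15 libraries, lost most of their transcript in HaCaT cells, an immortalised human epidermal keratinocyte line, after exposure to silver sulfide nanoparticles (NPs). They were not alone in this, since they belong to 207 tested genes that lay more than 1 below control on the log2 scale in all 4 treated groups. Of the 5, OLFM4 and SCGB1A1 encode secreted proteins, LUM and DCN encode extracellular matrix proteoglycans, and CALB1 encodes a calcium-binding protein that is known from the cytosol, so it is neither a secreted nor a matrix product. They were chosen because their values fell strongly in treated cells, with no numerical cut-off stated, so their difference from the control is described below and not tested. Abundance is given as FPKM, fragments per kilobase of transcript scaled to the number of mapped fragments, a unit that already allows for transcript length.

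The RNA-seq data came from 5 groups of 3 libraries each, all from the same cell line. The control cells received no particles, and the other groups were exposed for 24 h to Ag2S NPs at 160 or 320 μg/mL, or to Li-doped Ag2S NPs, the same particles made with lithium added, at 160 or 320 μg/mL. The labels do not say that the 3 libraries of a group came from separate cultures, so every p-value below measures the spread between libraries, which may be technical. In bulk RNA, fewer cells that express a gene and less RNA per cell cannot be told apart.

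Olfactomedin 4, the product of OLFM4, is a secreted glycoprotein known from intestinal crypts and from a subset of neutrophils, and it is often found raised in inflamed epithelium. Secretoglobin family 1A member 1, the product of SCGB1A1, is the small secreted protein of airway club cells. Lumican (LUM) and decorin (DCN) are small leucine-rich proteoglycans, horseshoe-shaped proteins that bind collagen fibrils and control their spacing, and decorin also binds TGF-β and several receptor tyrosine kinases. Fibroblasts are their usual source in skin. Calbindin 1 (CALB1) buffers calcium in neurons and in kidney, and in kidney the vitamin D receptor is known to control it.

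The 15 keratinocyte markers listed (keratins, TP63, integrins and desmosomal genes) were all expressed, with a summed level of 14073 to 35534 FPKM per library. Markers of fibroblasts, airway secretory cells, crypt cells and neutrophils were read beside them, while none were run for the neurons and kidney cells known for CALB1. Among 16 fibroblast markers in the tables, 13 stayed under 1 FPKM in every control library, COL6A3, PRRX1 and DPT were at 0 in all of them, and COL1A2 (mean 0.030) and COL3A1 (0.013) were near 0. The other 3 were expressed, FBLN1 at a control mean of 37.1 FPKM, COL1A1 at 6.42 and TWIST2 at 2.11, so that the list summed to 44.9 to 49.0 FPKM in the control libraries. Among 4 airway secretory markers the sum was 0.26 to 1.12 FPKM over all groups, with MUC5B and MUC5AC at 0 in the controls. Among 3 markers of crypt cells and neutrophils the control sum was 0.58 to 0.99 FPKM, with LGR5 and CAMP at 0. That sum was 1.68 to 3.85 FPKM with Li-doped Ag2S NPs at 160 μg/mL and at most 2.12 in any other group. In the former group CAMP, an antimicrobial peptide gene listed here as a neutrophil marker, held a mean of 2.16. OLFM4 was at 0 in that group, and it averaged 19.9 FPKM in the control, where CAMP was at 0. The part of these markers in the OLFM4 values was not tested.

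The deposited tables hold no counts. From the size of the lowest steps between values, each library was estimated to hold 10200000 to 15200000 fragments, which makes 1 fragment worth 0.030 to 0.036 FPKM for OLFM4, 0.050 to 0.070 for LUM, 0.058 to 0.078 for DCN, 0.059 to 0.085 for CALB1 and 0.289 to 0.345 for the short SCGB1A1 transcript in the control libraries. Several treated values below are therefore worth a handful of fragments, and a fold change from control is given only where the treated group reached an estimated 10 fragments in all. None of 11 housekeeping genes checked was listed at 0 in any library, the lowest standing at 7.6 FPKM.

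OLFM4 lies on chromosome 13 (GENCODE 29, GRCh38, 53028759 to 53052057, plus strand). Its RefSeq promoter is shown because OLFM4 lay furthest below control, of all genes tested on log2(FPKM + 0.1), in 3 of the 4 treated groups, and because it was the single one of the 5 with an entry among the RefSeq promoters used here. The stretch below is chr13:53028563-53028758 (GRCh38.p14, plus strand), 196 bases, and ends just before the first base that GENCODE assigns to the gene, 54 bases short of the RefSeq start. The capitals mark the one match to the AP-1 motif TGANTCA.
OLFM4 promoter: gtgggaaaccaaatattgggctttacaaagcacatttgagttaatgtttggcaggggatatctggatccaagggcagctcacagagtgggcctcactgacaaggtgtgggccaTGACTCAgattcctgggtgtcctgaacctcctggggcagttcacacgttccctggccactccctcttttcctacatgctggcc
Counted from the RefSeq start, and not from the end of the printed stretch, the match spans bases -137 to -131, and 6.57% of 35116 promoters searched over the same 250 bases, on both strands, hold that motif. TATAAA (held by 10.7% of promoters), TTGCNNAA (C/EBP, 9.05%), CACGTG (E-box, 6.34%), TGTTTAC (forkhead, 2.98%) and GTCTAGAC (SMAD palindrome, 0.182%) had no match in the 250 bases before OLFM4.

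OLFM4 was expressed in every control library, at 20.72, 17.90 and 21.06 FPKM, or an estimated 557 to 692 fragments each. With Ag2S NPs at 160 μg/mL the libraries held 0.43, 0.58 and 0.97 FPKM. With Ag2S NPs at 320 μg/mL they held 0.08, 0.09 and 0.08. No OLFM4 was listed in any of the 3 libraries treated with Li-doped Ag2S NPs at 160 μg/mL (0, 0 and 0), and the higher dose gave 0.08, 0.04 and 0.03. The control libraries therefore stood far above all 12 treated ones, the low dose of undoped particles came next, and the last 3 groups lay at or under an estimated 8 fragments per group. The mean fell from 19.9 ± 1.73 (SD, n = 3) to 0.660 ± 0.279 with Ag2S at 160 μg/mL, 30.1-fold lower. The other treated groups held at most 0.419% of the control mean, and their order rests on too few fragments for a fold change. The gene has 1 listed transcript, of 5 exons and 2897 bases, so this pattern did not depend on how reads were shared among isoforms.

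SCGB1A1 lies on chromosome 11 (62405103 to 62423195, plus strand) and has 1 listed transcript of 441 bases. It was the most abundant of the 5 in control cells, at 49.80, 35.37 and 49.15 FPKM. Ag2S NPs at 160 μg/mL left 2.79, 3.77 and 6.05 FPKM, and at 320 μg/mL 1.16, 1.65 and 0.88. Li-doped NPs at 160 μg/mL left 0.67, 0 and 0.34 FPKM, and at 320 μg/mL 1.43, 0.75 and 1.37. All treated libraries were below all control libraries, and the 3 libraries of Li-doped NPs at 160 μg/mL, with an estimated 3 fragments in total, were below those of every other treated group. Relative to the control mean of 44.8 ± 8.15 (SD, n = 3), SCGB1A1 was 10.7-fold lower with Ag2S at 160 μg/mL (4.20 ± 1.67), 36.4-fold lower with Ag2S at 320 μg/mL (1.23 ± 0.390) and 37.8-fold lower with Li-doped NPs at 320 μg/mL (1.18 ± 0.376).

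**Figure D1:**
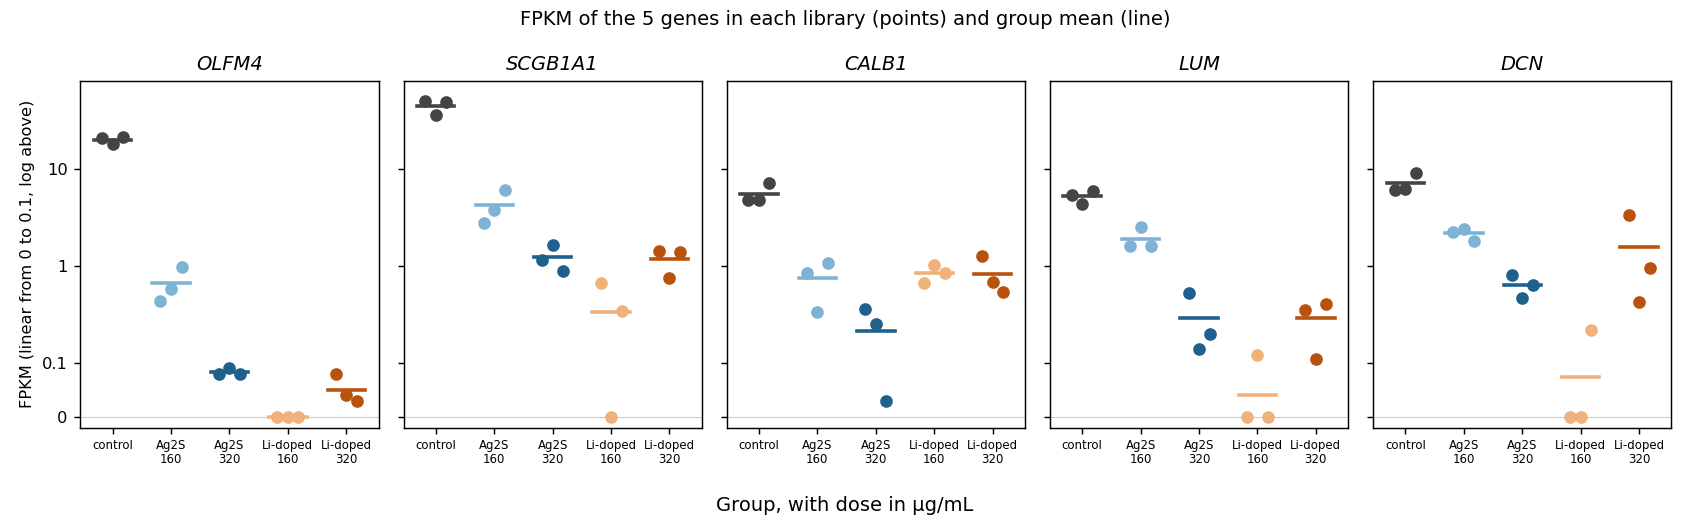
FPKM of OLFM4, SCGB1A1, CALB1, LUM and DCN (vertical axis, linear from 0 to 0.1 and logarithmic above) in each library (points), with the mean of each group of 3 libraries (lines), by group and dose in μg/mL (horizontal axis). Every treated library lies below every control library for all 5 genes, OLFM4 is at 0 in the 3 libraries of Li-doped Ag2S at 160 μg/mL, and 1 DCN value with Li-doped Ag2S at 320 μg/mL (3.34) stands apart from the other 2 (0.42 and 0.95).

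Lumican and decorin are encoded next to each other on the minus strand of chromosome 12 (LUM 91102629 to 91111831, DCN 91140484 to 91183123), 28.7 kb apart. LUM stood at 5.37, 4.36 and 5.84 FPKM in the control libraries. Ag2S NPs at 160 μg/mL left 1.61, 2.49 and 1.58 FPKM, the mildest loss of the 5 genes in that group. The higher dose left 0.52, 0.14 and 0.20. With Li-doped NPs LUM was listed at 0, 0.12 and 0 FPKM at 160 μg/mL, and at 0.35, 0.11 and 0.40 at 320 μg/mL. Both 320 μg/mL groups overlapped and had the same mean to 3 digits, 0.287 ± 0.204 and 0.287 ± 0.155 (SD, n = 3), 18.1-fold below the control mean of 5.19 ± 0.756. Without replicate 7, the highest of the undoped group, that fold was 30.5. Ag2S at 160 μg/mL gave a 2.74-fold lower level (1.89 ± 0.517).

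DCN followed a like course, with control values of 5.99, 6.16 and 9.09 FPKM. Ag2S NPs at 160 μg/mL left 2.25, 2.42 and 1.78 FPKM, 3.29-fold below control on the means (7.08 ± 1.74 and 2.15 ± 0.332, SD, n = 3). Ag2S NPs at 320 μg/mL left 0.81, 0.47 and 0.64, 11.1-fold below control. Li-doped NPs at 160 μg/mL left 0, 0 and 0.22 FPKM, an estimated 1 fragment over the 3 libraries, and no other group reached so low. At 320 μg/mL the Li-doped libraries held 3.34, 0.42 and 0.95 FPKM, a mean of 1.57 ± 1.56 that was 4.51-fold below control and 10.3-fold below without replicate 13. In that replicate 2.70 of the 3.34 FPKM was assigned to a transcript of 228 bases, ENST00000456569, which was at 0 wherever else it was listed, and the library held an estimated 8 to 12 DCN fragments like the others of its group.

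CALB1, on chromosome 8, was expressed at 4.78, 4.75 and 7.08 FPKM in control cells. Ag2S NPs at 160 μg/mL left 0.84, 0.33 and 1.07 FPKM, and at 320 μg/mL 0.36, 0.25 and 0.03. The low dose of Li-doped NPs left 0.67, 1.02 and 0.85 FPKM and the high dose left 1.27, 0.68 and 0.54. Unlike the other 4 genes, CALB1 had its lowest mean with undoped Ag2S at 320 μg/mL (0.213 ± 0.168, an estimated 9 fragments in all). The libraries of that group overlapped those of Ag2S at 160 μg/mL (up to 0.36 against 0.33 and above), and the remaining treated groups overlapped each other. Those 3 groups were 7.42-fold (Ag2S at 160 μg/mL), 6.54-fold (Li-doped at 160 μg/mL) and 6.67-fold (Li-doped at 320 μg/mL) below the control mean of 5.54 ± 1.34 (SD, n = 3).

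**Figure D2:**
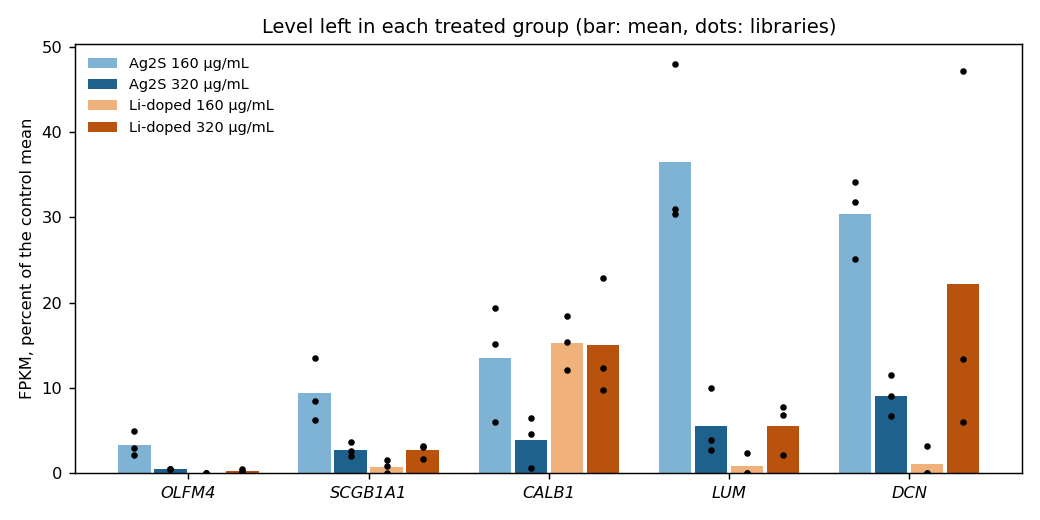
FPKM of each gene as a percentage of its control mean (vertical axis) in the 4 treated groups (coloured bars, means of 3 libraries) with the single libraries as dots. OLFM4 retained at most 3.32% of its control mean and SCGB1A1 at most 9.39%, while LUM and DCN retained 36.5% and 30.4% with Ag2S at 160 μg/mL and 0.771% and 1.04% with Li-doped Ag2S at 160 μg/mL.

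All 5 genes were more than 2-fold below control with no overlap between libraries in each of the 4 treated groups. Among the 11952 genes with a mean of at least 1 FPKM over the 15 libraries, 2.88% met the same description with Ag2S at 160 μg/mL, 6.17% with Ag2S at 320 μg/mL, 12.9% with Li-doped NPs at 160 μg/mL and 8.34% with Li-doped NPs at 320 μg/mL. The 5 were chosen on this comparison and passed that mean through their control libraries, so nothing is read from these counts. Silencing was not complete for every gene and group, since LUM and DCN kept 36.5% and 30.4% of the control mean with Ag2S at 160 μg/mL. Ordered from the lowest difference on log2(FPKM + 0.1), OLFM4 was at place 2, 1, 1 and 1 in those groups, SCGB1A1 at 6, 3, 2 and 4, CALB1 at 10, 6, 175 and 47, LUM at 111, 10, 13 and 14, and DCN at 61, 19, 8 and 53. A log2 difference under -1 in all 4 groups was seen for 207 genes (1.73%), these 5 among them.

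The treated groups were then compared with each other on log2(FPKM + 0.1) with limma fitted over all 11952 genes and all 15 libraries. The control libraries do not enter these differences, but they enter the estimate of spread and the filter on mean level. Since the choice of the 5 genes drew on treated libraries, these tests are not independent of it, and they describe how the 5 differed among treatments. The 5 comparisons of treated groups were tested for each gene, and the p-values were adjusted over all genes. Doses are also set across the 160 and the 320 μg/mL tables, in which the 3 control columns are identical.

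At 160 μg/mL, Li-doped NPs left less OLFM4, SCGB1A1, LUM and DCN than undoped Ag2S NPs did, and the libraries did not overlap for any of these 4, as for 31.2% of all genes in that direction (23.7% in the other). The difference was -3.91 on the log2 scale for LUM (SE 0.46, limma adjusted p = 3.77e-06), -3.92 for DCN (SE 0.56, limma adjusted p = 3.03e-05), -3.66 for SCGB1A1 (SE 0.54, limma adjusted p = 4.12e-05) and -2.86 for OLFM4 (SE 0.35, limma adjusted p = 6.54e-06). CALB1 did not pass the test (0.26, 95% interval -0.74 to 1.27, limma adjusted p = 0.671). Of all genes tested, 29% were called lower with the Li-doped particles at this dose and 21.7% higher. The Li-doped group held an estimated 0 fragments of OLFM4, 1 each of LUM and DCN and 3 of SCGB1A1 over its 3 libraries, so these sizes depend on the constant added before the logarithm. Over the alternatives the difference ran from -5.99 to -0.72 for OLFM4, from -6.31 to -1.46 for LUM, from -6.24 to -1.55 for DCN and from -4.91 to -1.94 for SCGB1A1. The calls held in each, though all alternatives rest on the same few fragments and the same choice of genes. The spread was pooled over all 5 groups, and the OLFM4 values of 0 in the Li-doped group have none of their own. With these groups fitted alone the OLFM4 call was weaker (limma adjusted p = 0.00285).

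At 320 μg/mL the particles could not be separated for 4 of the 5 genes. The difference was -0.30 for OLFM4 (95% interval -1.05 to 0.45), -0.06 for SCGB1A1 (-1.21 to 1.09), 0.03 for LUM (-0.94 to 1.00) and 0.76 for DCN (-0.43 to 1.96), with limma adjusted p from 0.341 to 0.974. The intervals reach as far as -1.21 and 1.96 on the log2 scale, so alike action of the particles is not shown. CALB1 was higher with the Li-doped particles (1.68, SE 0.47, limma adjusted p = 0.0183), against 9.09% of genes called higher and 15.4% called lower at this dose. The CALB1 libraries did not overlap, as for 15.6% of genes in that direction and 25.5% in the other, but the call was lost without replicate 9 of the undoped group (limma adjusted p = 0.0768), without replicate 13 of the Li-doped group (limma adjusted p = 0.0754) and with these groups fitted alone (limma adjusted p = 0.0646).

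The effect of dose was examined within each kind of particle. With undoped Ag2S NPs, OLFM4 (-1.99, SE 0.35, limma adjusted p = 0.00188) and LUM (-2.46, SE 0.46, limma adjusted p = 0.00267) were lower at 320 than at 160 μg/mL, when 7.68% of genes were called lower and 4.84% higher. CALB1 passed narrowly (-1.50, limma adjusted p = 0.0499) and failed in 9 of 11 alternatives, with a difference of -0.96 without replicate 9. SCGB1A1 (-1.66, limma adjusted p = 0.0561) and DCN (-1.62, limma adjusted p = 0.0710) did not pass, although their libraries did not overlap between the doses, nor did those of OLFM4 and LUM, as for 19.3% of genes lower and 12.7% higher at 320 μg/mL. SCGB1A1 passed in 3 of 12 alternatives, with a pseudocount of 1 (limma adjusted p = 0.00395), a mean of at least 5 FPKM (limma adjusted p = 0.0474) and these groups fitted alone (limma adjusted p = 0.0200). DCN passed in 2 of 11, with a pseudocount of 1 (limma adjusted p = 0.0443) and these groups fitted alone (limma adjusted p = 0.0119).

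With Li-doped NPs, DCN (3.07, SE 0.56, limma adjusted p = 0.000436), SCGB1A1 (1.94, SE 0.54, limma adjusted p = 0.00901) and LUM (1.47, SE 0.46, limma adjusted p = 0.0163) were higher at 320 than at 160 μg/mL, when 19.6% of genes were called higher and 23.3% lower. Libraries of the doses did not overlap for OLFM4, SCGB1A1 and DCN, higher at 320 μg/mL as 22% of genes were, with 27.5% lower. The LUM call was lost in 6 of 11 alternatives, and the LUM libraries overlapped. SCGB1A1 lost its call with the groups fitted alone (limma adjusted p = 0.0526), and its difference was 1.09 without replicate 11, the library at 0. The DCN difference was 2.33 without replicate 13, the library with the 228-base transcript, and still passed (limma adjusted p = 0.00170). These sizes rest on the same few fragments at 160 μg/mL and ran over the alternatives from 1.10 to 5.29 for DCN, from 0.72 to 3.10 for SCGB1A1 and from 0.30 to 3.47 for LUM. OLFM4 rose from 0 in all libraries to 0.03 to 0.08 FPKM without passing (0.57, limma adjusted p = 0.206), and CALB1 showed no difference past the test (-0.09, 95% interval -1.09 to 0.92).

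The difference between these dose effects was itself tested as an interaction, Li-doped minus undoped. It was positive for DCN (4.69, SE 0.79, limma adjusted p = 0.000257), LUM (3.94, SE 0.64, limma adjusted p = 0.000196), SCGB1A1 (3.60, SE 0.76, limma adjusted p = 0.00156) and OLFM4 (2.56, SE 0.50, limma adjusted p = 0.000792), and these calls held in every alternative run. All alternatives share the same choice of genes and a Li-doped group at 160 μg/mL with an estimated 0 to 3 fragments per gene. That the calls held is therefore no independent support. From so low a level a further fall with dose could hardly be seen, so a positive sign was favoured in advance. The sizes again depend on the constant added, and ran from 2.04 to 7.05 for DCN, from 1.47 to 6.33 for LUM, from 1.91 to 4.84 for SCGB1A1 and from 0.67 to 5.26 for OLFM4. With the treated groups fitted alone the OLFM4 call was weaker (limma adjusted p = 0.0220). CALB1 did not pass (1.41, 95% interval -0.01 to 2.84, limma adjusted p = 0.107). Of all genes, 20.2% had a positive and 19.5% a negative interaction. The course of SCGB1A1, LUM and DCN, lower with Li-doped than undoped particles at 160 μg/mL and higher at 320 than at 160 μg/mL with Li-doped ones, was shared by 1944 genes (16.3% of those tested).

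**Figure D3:**
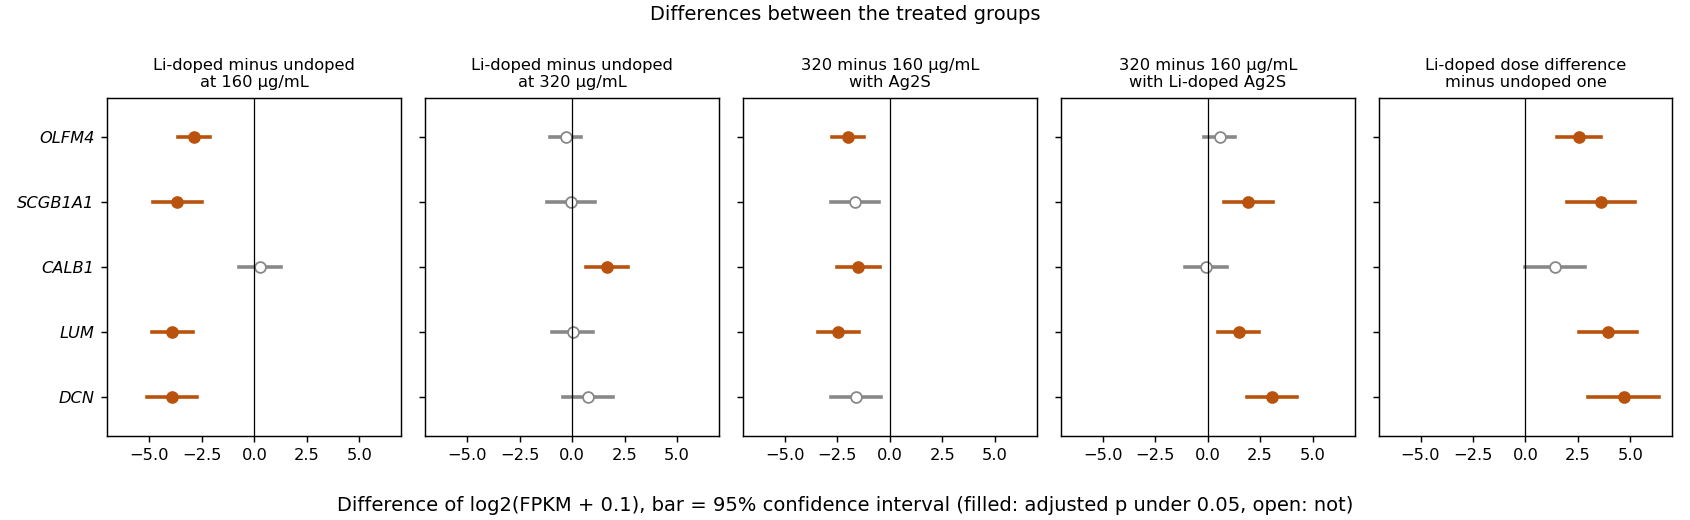
Differences between treated groups in log2(FPKM + 0.1) (horizontal axes) for the 5 genes (rows), with bars for the 95% confidence interval of limma and filled points for an adjusted p under 0.05. At 160 μg/mL 4 genes lie to the left of 0 and CALB1 does not, at 320 μg/mL CALB1 is the filled point, and the interaction in the last panel is positive for the 4 genes other than CALB1.

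The transcripts behind the gene values differed between the proteoglycans. LUM had 3 listed transcripts, 1 of them protein-coding (ENST00000266718, 3008 bases), and in the control libraries this held 1.51, 2.22 and 1.97 FPKM while the 2 processed transcripts together held 3.86, 2.14 and 3.88. In the 6 libraries of Li-doped NPs the coding transcript was at 0 in 4 and at 0.11 in 2. DCN had 16 listed transcripts, 15 of them protein-coding, and 3 reached a control mean of 0.5 FPKM. The leading one, ENST00000393155 (2133 bases), went from 3.14, 3.01 and 3.82 FPKM in the control to 0.36, 1.18 and 0.69 with Ag2S at 160 μg/mL. It was at 0 in all 3 libraries of Li-doped NPs at 160 μg/mL. CALB1 had 9 listed transcripts, of which 4, all protein-coding, reached a control mean of 0.5 FPKM. Its longest coding form, ENST00000265431 (2533 bases), fell from 1.89, 2.14 and 1.74 FPKM to at most 0.32 in any treated library. Cufflinks shares reads among overlapping isoforms by estimation, so values per transcript at this depth are rough.

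The nearest listed genes on the chromosomes, up to 3 on each side, were read beside the 5. Of 18 tested, the 5 themselves left out, 6, 7, 7 and 11 fell and 2, 1, 5 and 2 rose in the 4 treated groups. Of all genes tested, 23.6%, 33.9%, 40.4% and 42.6% were called lower and 11.8%, 15.9%, 22.9% and 16.4% higher in the same order, so nothing is read from these counts. Among the 18, 4 fell in all treated groups, AP003733.4, DIAPH3, INCENP and NBN. INCENP, a gene of the chromosomal passenger complex 251.9 kb from SCGB1A1, went from 43.3 FPKM to 22.8, 18.6, 11.9 and 16.2 (limma adjusted p at most 6.74e-05). Its lowest mean, like that of SCGB1A1, was with Li-doped NPs at 160 μg/mL, where 40.4% of all genes were called lower. A link between these genes was not tested. NBN, a DNA repair gene 55.4 kb from CALB1, went from 11.2 FPKM to between 4.43 and 6.27 (limma adjusted p at most 0.00159). DIAPH3, a formin gene, lies 6613.5 kb from OLFM4 and went from 5.58 FPKM to between 1.55 and 3.43 (limma adjusted p at most 0.0275), a call lost with Ag2S at 160 μg/mL after median-ratio scaling (limma adjusted p = 0.0602). EPYC, the small leucine-rich proteoglycan gene 97.6 kb beyond LUM, was barely present (control mean 0.147 FPKM). BTG1, an antiproliferative gene 957.2 kb on the other side of DCN, stood at 34.6 FPKM in the control and fell in 3 groups, by 0.25 and 0.62 on the log2 scale with Ag2S at the low and high dose and by 0.55 with Li-doped NPs at 320 μg/mL (limma adjusted p at most 0.0312). The first of these calls was lost after median-ratio scaling (limma adjusted p = 0.318), and BTG1 did not pass with Li-doped NPs at 160 μg/mL, where LUM and DCN were lowest. AHNAK, a large scaffold protein gene 10.3 kb from SCGB1A1, held 203 FPKM in the control and did not pass the test in any treated group (limma adjusted p = 0.0568 to 0.959). SUGT1, a co-chaperone gene 327.8 kb from OLFM4, rose from 49.3 ± 1.71 to 68.5 ± 8.81 FPKM (SD, n = 3) with Ag2S at 160 μg/mL (0.47, limma adjusted p = 0.000749). At 320 μg/mL it rose too, with Ag2S (0.42, limma adjusted p = 0.000772) and with Li-doped NPs (0.24, limma adjusted p = 0.0230). DECR1, a mitochondrial fatty acid oxidation gene 6.5 kb from CALB1, fell most with Li-doped NPs at 160 μg/mL (-1.08, limma adjusted p = 4.12e-10), where CALB1 held 15.3% of its control mean. Its smaller falls at 320 μg/mL, -0.34 with Li-doped NPs and -0.16 with Ag2S, passed but lost their calls after median-ratio scaling (limma adjusted p = 0.244 and 0.986). With Ag2S at 160 μg/mL DECR1 rose (0.16, limma adjusted p = 0.0447).

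Relatives and partners of the 5 proteins were examined next, against the control and with limma over all genes. In that fit 11.8% of genes were called higher and 23.6% lower with Ag2S at 160 μg/mL, 15.9% and 33.9% with Ag2S at 320 μg/mL, 22.9% and 40.4% with Li-doped NPs at 160 μg/mL, and 16.4% and 42.6% with Li-doped NPs at 320 μg/mL. The median gene lay 0.14 to 0.25 below control on the log2 scale. Scaling each library by the median ratio removed that shift and moved the share of calls that were lower from 66.6% to 45.7%, 68.1% to 49%, 63.8% to 50.5% and 72.2% to 48.7% in the same order, so small changes below are read against it. The filter on mean level let in 4 listed genes with a control mean under 1 FPKM, ECM2, OLFM1, CALB2 and CEBPA, through their treated libraries. Genes as low that fell could not pass it, so a count of rises that includes one of the 4 is also given without it, and their own rises are given as levels with no test.

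The other small leucine-rich proteoglycans were mostly too low to test. Of 15 listed, 9 were in the tables and 3 were tested. TSKU, tsukushi, a secreted modulator of growth factor signalling, held 65.1 ± 2.57 FPKM in the control and 53.4 to 66.3 in the treated groups. It fell with Li-doped NPs (-0.28 at 160 and -0.19 at 320 μg/mL, limma adjusted p = 0.00170 and 0.0219), but neither call held after median-ratio scaling, which turned the second to 0.05. ECM2, an extracellular matrix protein gene, held 0.263 ± 0.0862 FPKM in the control and 2.76 ± 0.157 (SD, n = 3) with Li-doped NPs at 160 μg/mL, the group in which LUM and DCN were lowest. PODNL1, a podocan-like gene, passed the test in 1 group, Li-doped NPs at 320 μg/mL (0.49, limma adjusted p = 0.0300). BGN, which encodes biglycan, the closest relative of decorin, was untested at 0.807 ± 0.236 FPKM in the control and 0.213 ± 0.0513 with Li-doped NPs at 160 μg/mL.

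The collagens that lumican and decorin bind, with other fibril partners, were higher. Of 9 tested among 18 listed, 9 rose with Ag2S at either dose, 8 with Li-doped NPs at 160 μg/mL and 9 at 320 μg/mL, and none fell. Their median differences from control were 1.44, 2.45, 2.32 and 2.33 on the log2 scale. COL1A1, the α1 chain of type I collagen, went from 6.42 FPKM in the control to 21.8, 40.5, 19.6 and 36.0 in the 4 treated groups (differences of 1.74, 2.65, 1.60 and 2.47, limma adjusted p at most 1.59e-07). COL5A1, a chain of the type V collagen that starts such fibrils, rose from 8.12 FPKM to between 26.3 and 46.8. TNC, tenascin C, a matrix protein of wound edges, rose from 1.73 FPKM to between 18.1 and 68.4, and FN1, fibronectin, from 33.1 to between 91.0 and 229. COL12A1 did not pass with Li-doped NPs at 160 μg/mL (0.22, limma adjusted p = 0.188). COL1A2, the partner chain of COL1A1 in type I collagen, and COL3A1 stayed at or under 0.03 FPKM on average in all groups.

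As a sum, the other fibroblast markers followed another course than LUM and DCN. The summed level of the 16 fibroblast markers, LUM and DCN left out, was 44.9 to 49.0 FPKM in the control, 57.7 to 60.9 and 69.0 to 72.4 with Ag2S at the low and high dose, 38.0 to 43.5 with Li-doped NPs at 160 μg/mL and 68.1 to 71.9 at 320 μg/mL. COL1A1 and FBLN1 made up most of each sum. FBLN1, a fibulin gene named here after its values were seen, fell from 37.1 FPKM in the control to 14.8 with Li-doped NPs at 160 μg/mL (-1.33, limma adjusted p = 4.97e-08). LUM and DCN were lowest in that group too, in which 40.4% of all genes were called lower. At 320 μg/mL FBLN1 also fell, with Ag2S (-0.54, limma adjusted p = 0.000941) and with Li-doped NPs (-0.41, limma adjusted p = 0.00567). The last call was lost after median-ratio scaling (limma adjusted p = 0.332). With Ag2S at 160 μg/mL FBLN1 did not pass (-0.19, limma adjusted p = 0.190). The part of these markers in the LUM and DCN values was not tested.

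Decorin's other binding partners were mixed, with 8 of 16 listed genes tested. TGFB1 rose in all 4 groups, from 24.2 FPKM to 47.6, 51.3, 75.6 and 64.3 (differences of 0.97 to 1.63, limma adjusted p at most 4.76e-06). EGFR, a receptor that decorin binds, rose with Li-doped NPs at 160 μg/mL (0.69, limma adjusted p = 0.000375) and fell in the other 3 groups, to between 108 and 120 FPKM from 151 in the control, a fall that did not pass with Li-doped NPs at 320 μg/mL after median-ratio scaling. MET, the hepatocyte growth factor receptor and another decorin target, rose with Li-doped NPs at 160 μg/mL (1.30, limma adjusted p = 1.98e-07) and with Ag2S at 320 μg/mL (0.45, limma adjusted p = 0.00673). In the list 3, 3, 4 and 2 genes rose and 1, 3, 3 and 5 fell in the 4 groups, or 5, 5, 5 and 2 against 1, 1, 3 and 1 after median-ratio scaling.

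Among 9 tested proteoglycan core proteins of other families, 3, 4, 5 and 4 rose and 0, 0, 2 and 0 fell. GPC1, a cell-surface glypican, rose in all 4 groups, from 137 FPKM to 189, 224, 199 and 265. SPOCK1, a secreted testican, rose in all 4 as well, by 1.01 to 1.76 on the log2 scale. HSPG2, the basement membrane proteoglycan perlecan, fell with Li-doped NPs at 160 μg/mL (-0.78, limma adjusted p = 0.000224), as 17.2 FPKM against 29.5.

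The family of OLFM4 was measured in part. Of 12 other olfactomedin-domain genes listed, 7 were in the tables and 3 were tested, and 2, 3, 2 and 2 of these rose in the 4 groups while none fell, or 1, 2, 1 and 1 of 2 without OLFM1. ADGRL3, a latrophilin, was untested at 0.357 FPKM in the control and 0.140 to 0.207 in the treated groups. OLFM2 rose from 1.80 FPKM in the control to 13.6, 29.6, 45.2 and 44.4, differences of 2.87, 3.98, 4.59 and 4.57 (limma adjusted p at most 2.95e-09). OLFM1 held 0.620 FPKM in the control and 1.48, 3.37, 9.06 and 4.21 in the treated groups. OLFML2A passed with Ag2S at 320 μg/mL (0.65, limma adjusted p = 0.000717).

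**Figure D4:**
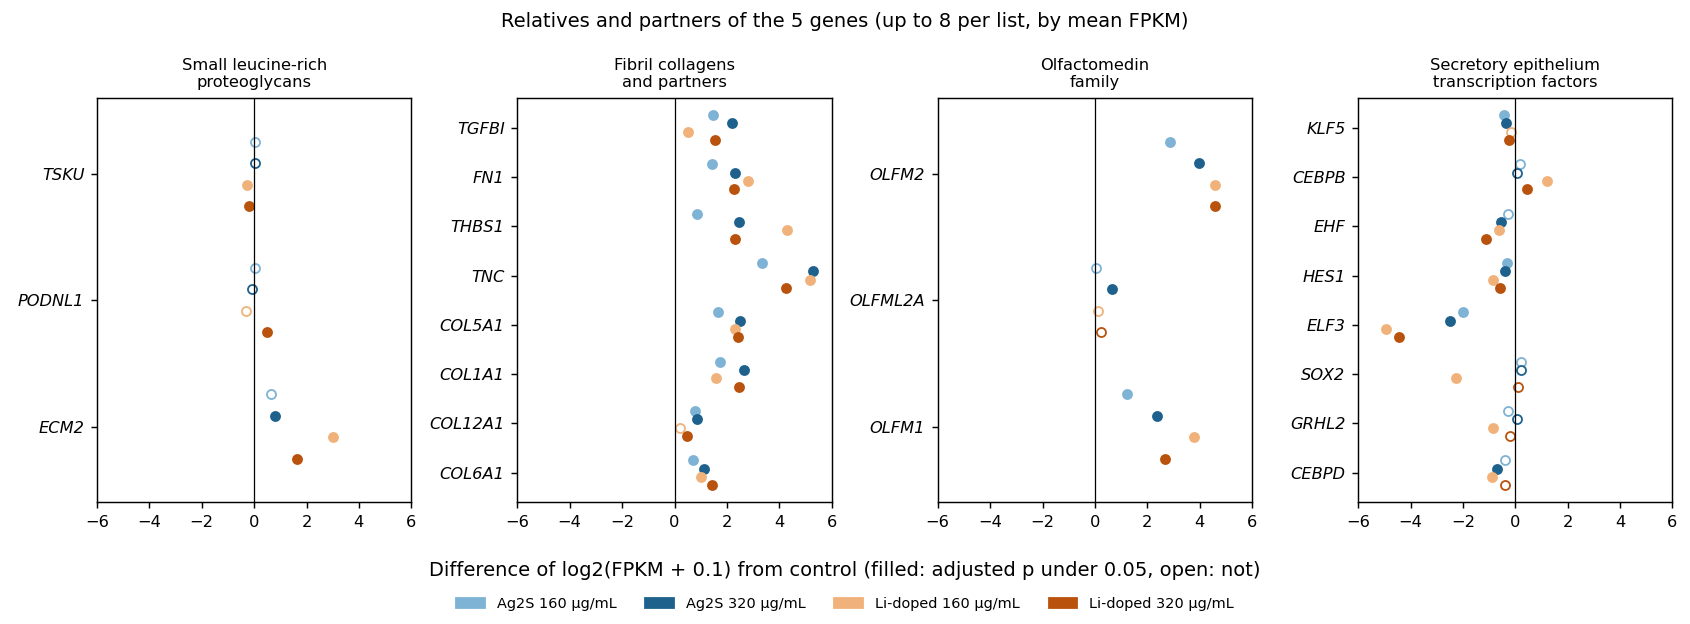
Difference from control in log2(FPKM + 0.1) (horizontal axes) of the highest-expressed tested genes of 4 lists (rows, up to 8 per list) in the 4 treated groups (colours), filled where the limma adjusted p was under 0.05. The fibril collagens and their partners, OLFM2 and OLFM1 lie to the right of 0 (ECM2 and OLFM1 passed the filter on mean level only through treated libraries), and ELF3 lies at -2.01 to -4.92, while the 3 small leucine-rich proteoglycans tested show no shared direction.

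SCGB1A1 had no tested relative, since 2 of 10 other secretoglobins were in the tables and both, SCGB3A2 and SCGB2B2, averaged under 0.1 FPKM in every group. Other secreted proteins of mucosal epithelia were mixed. Of 9 tested among 25 listed, 0, 1, 4 and 3 rose and 3, 5, 2 and 4 fell in the 4 groups. LCN2, lipocalin 2, an iron-sequestering antibacterial protein, held 767 FPKM in the control and fell to 205 with Li-doped NPs at 320 μg/mL (-1.90, limma adjusted p = 2.41e-10). WFDC2, a whey acidic protein of airway secretions, fell in all 4 groups. The fall was largest with Li-doped NPs at 160 μg/mL, from 114 FPKM to 46.1 (-1.31, limma adjusted p = 7.8e-09). SCGB1A1 was lowest in that group too, in which 40.4% of all genes were called lower. After median-ratio scaling the WFDC2 call was lost with Ag2S at 160 μg/mL (limma adjusted p = 0.221) and with Li-doped NPs at 320 μg/mL (limma adjusted p = 0.121). AGR2, a disulfide isomerase that helps mucins fold, rose most with Li-doped NPs at 160 μg/mL, from 102 to 244 FPKM (1.25, limma adjusted p = 7.61e-08). At 320 μg/mL it rose as well, with Ag2S (0.32, limma adjusted p = 0.0225) and with Li-doped NPs (0.60, limma adjusted p = 0.000245).

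Among 11 tested transcription factors of secretory epithelium, 5, 7, 8 and 6 fell and 0, 1, 2 and 2 rose in the 4 groups (0, 0, 1 and 1 without CEBPA), or 4, 5, 8 and 5 against 1, 2, 2 and 3 after scaling. The median differences were -0.31, -0.40, -0.86 and -0.41, beside -0.14, -0.18, -0.19 and -0.25 for all genes. RARB and FOXA1, named here after their values were seen, fell in all 4 groups. RARB, a retinoic acid receptor, went from 5.89 FPKM to 1.07, 0.220, 0.0367 and 0.160. It passed the filter on mean level through its control libraries, so its fall is given as levels with no test. The counts of falls and the medians above include RARB. All but the first of its treated means are near 0. FOXA1, a forkhead pioneer factor, went from 21.0 FPKM to 3.74, 1.62, 1.48 and 0.330, differences of -2.46, -3.64, -3.77 and -5.70 (limma adjusted p at most 6.64e-06). ELF3, an epithelial ETS factor, fell from 78.0 ± 3.54 FPKM in the control to 19.4, 13.6, 2.53 and 3.49 (limma adjusted p at most 4.12e-08). It was lower with Li-doped than with undoped NPs at 160 μg/mL (-2.91, limma adjusted p = 1.48e-10). SOX2, a factor of airway basal cells, stood at 18.9 FPKM in the control, 3.84 with Li-doped NPs at 160 μg/mL and 20.2 to 22.0 in the other treated groups, and its difference between the particles at 160 μg/mL was -2.49 (limma adjusted p = 3.18e-11). CEBPB rose with Li-doped NPs at both doses (1.22 and 0.47, limma adjusted p = 1.58e-06 and 0.00937).

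Around CALB1, 12 of 18 listed calcium buffers, pumps and vitamin D genes were tested, and 5, 5, 4 and 3 rose (4, 4, 3 and 2 without CALB2) while 1, 1, 5 and 3 fell. VDR, the vitamin D receptor, stayed between 13.1 and 19.4 FPKM, and fell with Li-doped NPs at 160 μg/mL (-0.36, limma adjusted p = 0.000962), a call lost after median-ratio scaling. ATP2B4, a plasma membrane calcium pump, rose in all 4 groups, from 26.6 to 34.7, 47.5, 71.9 and 48.4 FPKM. CALM2, 1 of 3 calmodulin genes that encode the same protein, fell from 333 FPKM to between 230 and 287, a call lost with Ag2S at 160 μg/mL after that scaling, and CALM3 rose from 110 to between 123 and 132. The nearest relative of CALB1, CALB2 (calretinin), named here after its values were seen, held 0.0567 FPKM in the control and 0.543, 0.940, 7.30 and 1.38 in the treated groups.

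For each of the 5, the genes with the closest pattern over the 15 libraries were found by Pearson's r of log2(FPKM + 0.1). The control libraries stand apart from the treated ones, so r mostly describes that gap, and the points share their libraries. OLFM4 was closest to CYB5B (r = 0.99), SERPINB3 and SERPINB4 (both r = 0.98), BMP3 and PCNA (both r = 0.98). BMP3, a secreted bone morphogenetic protein, went from 4.19 FPKM to 0.630, 0.127, 0.0900 and 0.0667, and SERPINB3 and SERPINB4, near-identical neighbours whose reads may have been shared, went from 78.3 and 48.9 to between 7.63 and 33.3. SCGB1A1 was closest to the interferon-stimulated gene IFI6 (r = 0.98, from 298 to 39.5 FPKM with Li-doped NPs at 160 μg/mL), then PARP10, ZG16B, TNFSF9 and DOLPP1. LUM was closest to TG, the gene of thyroglobulin (r = 0.97), then USP18, ADI1, PBDC1 and CD70. DCN was closest to ALKBH4 (r = 0.96), then TCN2, MCM5, RAB11B and ARFGAP2. CALB1 had the loosest match, TTF2 (r = 0.94), followed by GULP1, MSMO1, C2orf15 and CLDN1. None of the 5 appeared among another's closest 5. Between the neighbours LUM and DCN r was 0.89, and 250 of 11951 genes were closer to DCN than LUM was. Between OLFM4 and SCGB1A1 r was 0.95, and 37 genes were closer to SCGB1A1 than OLFM4 was. CALB1 was less close to the other members, with r from 0.55 to 0.79.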

How the data were processed

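RNA-seq libraries of HaCaT cells (5 groups of 3) were sequenced by the authors as paired reads of 150 bases, aligned with TopHat and quantified with Cufflinks 2.1.1 and Cuffdiff, with corrections for multi-mapped reads and fragment bias. The sources used here do not give the genome build. The deposited values are FPKM per gene and per transcript, rounded to 2 decimals. The 160 and 320 μg/mL tables (17740 and 17653 genes) were joined on gene identifier, and their control columns were identical. All 18180 identifiers matched GENCODE 29, which gave positions and transcript lengths.

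Genes with a mean of at least 1 FPKM were tested on log2(FPKM + 0.1) with limma 3.58.1 in R 4.3.3 (trend, 15 libraries in 1 fit, two-sided, Benjamini-Hochberg, threshold 0.05). The study's Cuffdiff test needs reads and could not be repeated. The script was tested on simulated data. Depth was estimated from the lowest FPKM steps of genes with 1 transcript of 500 to 2500 bases, and these fragment numbers are estimates that cover counting error only. No exact test of 3 against 3 libraries can go below p = 0.1.

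The 5 genes, the lists and the markers were chosen with earlier results of these data known. Named genes were the 5, up to 8 genes per list by mean FPKM, the 3 nearest listed genes on each side and the 5 genes with the highest r. Alternatives were other pseudocounts (1 and 0.01), filters (none, mean of at least 5), median-ratio scaling, fewer libraries per fit and leaving out each library. A fit per dose of 9 libraries was chosen after seeing the data. Tables that repeat these columns for pairs of groups were used only to compare values, and fold changes and p-values of the authors were not used.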

Additional observations from a re-analysis of the deposited data

Results flagged for a closer look

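The dose by particle differences of 4 of the 5 genes stood out because the effect of raising the dose differed between the particles in a direct test. The dose effect of Li-doped minus that of undoped Ag2S NPs was 2.56 for OLFM4, 3.60 for SCGB1A1, 3.94 for LUM and 4.69 for DCN on the log2(FPKM + 0.1) scale, past the threshold in limma's interaction test. All 4 genes were at or near 0 with Li-doped NPs at 160 μg/mL, with an estimated 0, 3, 1 and 1 fragments over the 3 libraries in the same order, so the sizes depend on the constant added. From such a level a further fall with dose could hardly be seen, so a positive sign was favoured in advance. The choice of the genes drew on these treated libraries, so the test is not independent of it. For OLFM4 the dose difference with Li-doped NPs did not pass by itself (0.57, limma adjusted p = 0.206). A positive difference of this kind was called for 20.2% of all genes tested. FBLN1 and ELF3 were also lowest with Li-doped NPs at 160 μg/mL, a group in which 40.4% of all genes were called lower than control. Other genes of their lists went elsewhere. COL1A1 was higher there than in the control (19.6 against 6.42 FPKM), and FOXA1 was lowest with Li-doped NPs at 320 μg/mL. The part of FBLN1 and ELF3 was not tested.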

How the results depend on the processing

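No paired analysis was possible because the replicate numbers in the labels run from 1 to 15 and no groups share one. All 5 genes stayed more than 2-fold below control without overlap under each pseudocount, scaling and left-out library. Counts of called genes stayed within 1.5 times except on leaving out a library: 2921 between the particles at 320 μg/mL became 1653 to 3169 (1653 without replicate 7, 1758 without replicate 15), and 1497 between the doses of Ag2S became 926 to 1257 (926 without replicate 8, 934 without replicate 7, 960 without replicate 9). After median-ratio scaling the difference from control with Li-doped Ag2S at 320 μg/mL changed sign for TSKU (0.0495), SDC4 (0.211) and TGFBR2 (0.0246). The cause was not tested.

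Of 2792 alternative values for the listed genes, 134 lost and 35 gained a call. The drop of OLFM4 with Li-doped NPs at 160 μg/mL was -4.38 with a pseudocount of 1 and -10.96 with 0.01, since 1 group is at 0. The dose difference of OLFM4 with Li-doped NPs passed with a pseudocount of 0.01. Depth limits every treated value under about 10 fragments, and absence of a transcript cannot be told from a level below 1 fragment.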
